A study of Mus musculus with 12 samples.

Results

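The mouse antioxidant, NRF2 and metallothionein genes described here are 43 genes that were picked by name for 1 shared theme, namely the transcription factor NRF2 and its targets, the metallothioneins, and the enzymes that handle peroxides and iron. The count table lists 48709 genes, and the 18847 that reached 5 counts in 6 or more of the 12 libraries were tested. All 43 genes were among those tested. The files identify genes by Ensembl number, for example ENSMUSG00000031765 for Mt1, ENSMUSG00000005413 for Hmox1, ENSMUSG00000058135 for Gstm1 and ENSMUSG00000026701 for Prdx6. RNA had been sequenced from primary hippocampal neurons of CD1 mice, prepared at embryonic day 17, to ask which transcripts change when the level of the microRNA miR-148a-3p is raised. All 12 cultures received lipid nanoparticles at day 10 in vitro, according to the methods together with ApoE4, and were harvested 48 h later, at day 12. In 6 cultures, called mimic below, the particles carried a double-stranded miR-148a-3p mimic. In the other 6 cultures, called control, they carried a negative control oligonucleotide. Per the methods of the study, hippocampi of several embryos were pooled for a preparation. Whether the 6 cultures of a group came from separate preparations is not stated, so that p-values measure the spread between these cultures, which may be technical.

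NRF2, encoded by Nfe2l2, is a transcription factor that KEAP1 holds in the cytoplasm and hands over for degradation. Oxidants and electrophiles modify KEAP1, NRF2 then enters the nucleus, pairs with small MAF proteins and switches on genes for glutathione synthesis, thioredoxin recycling, quinone and heme breakdown, NADPH supply and iron storage. Metallothioneins are small cysteine-rich proteins that bind zinc and copper, and their genes answer to metals through the factor MTF1. In the brain these defences are stronger in astrocytes than in neurons, and astrocytes supply neurons with precursors of glutathione. A microRNA lowers the level or the translation of a transcript by pairing its seed, bases 2 to 8, with the 3′ UTR.

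The 2 oligonucleotides are shown because their seeds, in capitals and written 5′ to 3′, decide which 3′ UTRs can pair with them. Both come from the reagent list of the study, and the mimic strand is identical to the RefSeq entry for mmu-miR-148a-3p. Its seed is also that of miR-148b-3p and miR-152-3p. The description of the series calls the control a siRNA, so it is an assumption that the listed strand was the one given to the 6 control cultures.
miR-148a-3p mimic: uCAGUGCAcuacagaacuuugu
negative control: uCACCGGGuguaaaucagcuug

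Among the 43 genes, 7 were higher and 15 were lower in mimic than in control cultures at an adjusted p under 0.05, and 21 were not called. All adjusted p-values given here come from the quasi-likelihood test of edgeR with Benjamini-Hochberg adjustment over all tested genes. The 22 called genes made up 51.2% of the 43, whereas 22.2% of all tested genes were called, 11.5% higher and 10.7% lower. Because well-counted genes are called more often, the background was also taken over the 12371 genes with a mean of at least 100 counts, a level that 42 of the 43 genes reached. Of those 12371 genes 28.4% were called, 15.1% higher and 13.3% lower. In 12 of the 43 genes every mimic library was below every control library, and in 4 every mimic library was above. Over all tested genes, the groups did not overlap in 13.3%. The median log2 fold change of the 43 genes was −0.064 against −0.012 over all tested genes, and 29 of the 43 values were below zero. Fold changes are mimic over control throughout, and levels of 1 gene are given as CPM, a gene's count scaled to its library total after TMM adjustment.

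**Figure D1:**
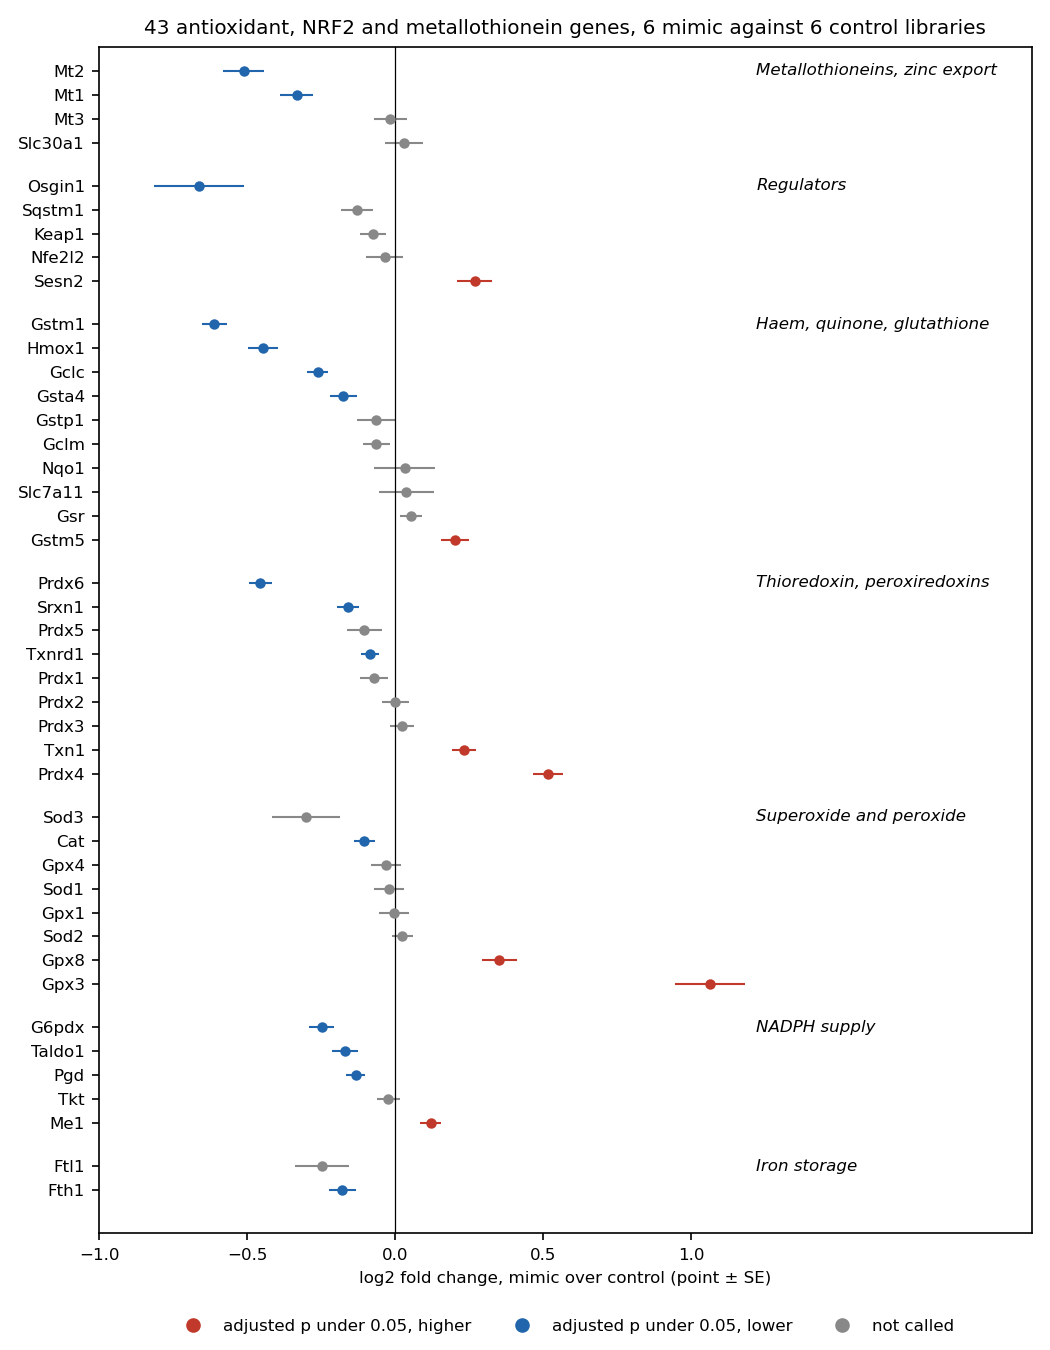
Log2 fold change, mimic over control, of each of the 43 genes (x axis), grouped by role from top to bottom. Points are estimates from 6 mimic and 6 control libraries, bars are ± 1 SE, red marks genes called higher, blue genes called lower and gray genes not called. The values run from −0.66 for Osgin1 to 1.06 for Gpx3, and called genes of both directions lie in most roles.

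Total counts ran from 20018234 to 37149112 in control and from 28316456 to 33808253 in mimic libraries, and the 43 genes took 0.481% to 0.527% of the counts of a control library and 0.446% to 0.465% of those of a mimic library. Control replicate 1 had the fewest counts and lay apart from the other 5 control libraries for several of the genes below. Without it 7 of the 43 genes were called higher and 15 lower. Over all tested genes 5154 were then called, against 4182 with all 12 libraries. The label of the cultures was compared with marker genes. Neuron markers, 12 genes, summed to 7870 to 8676 CPM in control and 7876 to 8252 CPM in mimic libraries, and astrocyte markers, also 12 genes, to 5477 to 5969 CPM and 6547 to 7019 CPM, so that markers of both were present. In the astrocyte sum, Slc1a3 had means of 913 CPM in control and 1815.5 CPM in mimic libraries, and Gfap 1362 and 731 CPM. Such sums thus depend on a few abundant genes. In RNA from whole cultures, fewer cells of a type and less RNA per cell cannot be told apart.

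Compared per kilobase of exon, the 43 genes covered a wide range in control cultures. Exon length joins the exons of all annotated transcripts of a gene. For Mt1 this gave 1246 bases, the whole gene from start to end. Levels per kilobase and their order therefore depend on the annotation. Fth1 was the highest with 243 CPM per kilobase, followed by Mt3 with 237, Mt1 with 205 and Gstm1 with 136. The 3 lowest were Osgin1 with 0.894, Sod3 with 1.18 and Gpx3 with 1.24 CPM per kilobase. The first of these groups holds a ferritin, 2 metallothioneins and a glutathione transferase, and the NRF2 transcript Nfe2l2 lay between, with 15.9 CPM per kilobase.

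**Figure D2:**
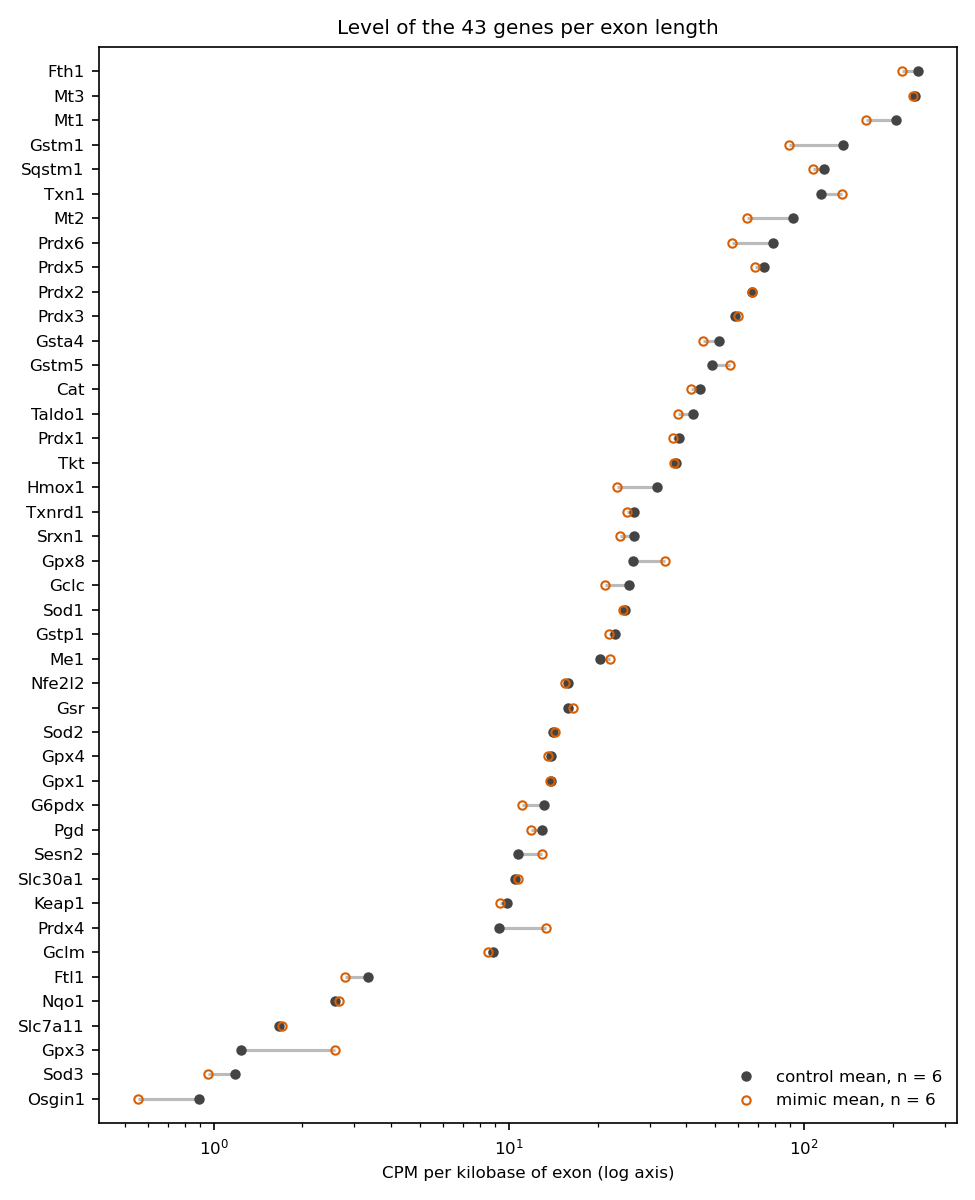
Mean level of each of the 43 genes in CPM per kilobase of exon (x axis, log scale), ordered by the control mean. Exon length joins the exons of all annotated transcripts of a gene. Filled points are the mean of 6 control libraries and open points the mean of 6 mimic libraries, joined by a line. Fth1, Mt3 and Mt1 lie at the top and Osgin1 at the bottom, and the longest lines belong to genes such as Gpx3, Osgin1, Gstm1 and Prdx4.

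The inducible metallothioneins were lower in mimic cultures, whereas Mt3 was not called. Mt1, Mt2 and Mt3 lie within 27721 bases, at chr8:94152607-94180327 of GRCm38. Mt1 and Mt2 are expressed in many tissues and respond to zinc, glucocorticoids and oxidants, and Mt3 is the form enriched in the brain. Mt1 gave 235 to 298 CPM (median 243) in control and 189.8 to 214 CPM (median 205) in mimic libraries. All mimic libraries were below all control libraries, and the transcript fell by 20.6% (log2 fold change −0.33, SE 0.056, adjusted p = 0.000289). Mt2 gave 50.6 to 57.5 CPM (median 53.4) in control and 31.6 to 43.8 CPM (median 38.4) in mimic libraries. Here too the groups did not overlap, and the transcript fell by 29.9% (log2 fold change −0.51, SE 0.07, adjusted p = 4.14e-05). Mt3 gave 229.6 to 299.9 CPM (median 244) in control and 238 to 259.9 CPM (median 251) in mimic libraries, and the mimic values lay inside the control range (log2 fold change −0.018, SE 0.056, adjusted p = 0.871). In control replicate 1 Mt1 and Mt3 were both the highest of their group, with 298 CPM of Mt1 and 299.9 CPM of Mt3. Dividing Mt1 by Mt3 within each library, without regard to length, gave 0.980 to 1.03 in control and 0.745 to 0.861 in mimic libraries, without overlap. The same ratio for Mt2 over Mt3 was 0.169 to 0.244 in control and 0.130 to 0.169 in mimic libraries, the highest mimic library being just below the lowest control library. Mt1 over Mt2 was 4.15 to 5.88 in control and 4.74 to 6.01 in mimic libraries and overlapped, and control replicate 1 had the highest Mt1 but the lowest Mt2 of its group. Without control replicate 1 the log2 fold change of Mt3 was 0.036 and thus of the opposite sign. Slc30a1 encodes the zinc exporter ZnT1, which MTF1 also regulates. It gave 46.0 to 61.4 CPM (median 56.1) in control and 53.5 to 61.6 CPM (median 54.4) in mimic libraries and was not called (log2 fold change 0.029, SE 0.064, adjusted p = 0.81). Without control replicate 1 its log2 fold change was −0.015. Slc30a1 overlaps 1700034H15Rik on the opposite strand over 8.92% of its exon bases, a gene with a mean of 107 counts that was called lower (log2 fold change −0.34, SE 0.074, adjusted p = 0.00267).

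Counting limits the value for Mt2 more than that for Mt1. Of the exon bases of Mt2, 73.5% overlap the gene model Gm45774 on the opposite strand, which had a mean of 32.4 counts, and 45.8% of its 50-base windows, the length of a read, also occur in that model. Reads in these bases can have been left out if strand was not used in the counting, which is not stated. Mt1 and Mt3 share no such window with any other gene.

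The stretch of 250 bases upstream of the RefSeq start of Mt1 and of Mt2 is shown because both genes were called lower and are known targets of MTF1. Capitals mark each match to TGCACNC or TGCGCNC on either strand, the core of the metal response element. The first lies at chr8:94178839-94179088 and the second at chr8:94172368-94172617 of GRCm38.p6, both on the plus strand.
Mt1 upstream: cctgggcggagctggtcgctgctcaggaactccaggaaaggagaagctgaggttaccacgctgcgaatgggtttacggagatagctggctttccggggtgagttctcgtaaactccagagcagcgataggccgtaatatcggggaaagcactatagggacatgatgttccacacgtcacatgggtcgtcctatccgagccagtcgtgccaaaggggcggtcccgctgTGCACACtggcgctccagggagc
Mt2 upstream: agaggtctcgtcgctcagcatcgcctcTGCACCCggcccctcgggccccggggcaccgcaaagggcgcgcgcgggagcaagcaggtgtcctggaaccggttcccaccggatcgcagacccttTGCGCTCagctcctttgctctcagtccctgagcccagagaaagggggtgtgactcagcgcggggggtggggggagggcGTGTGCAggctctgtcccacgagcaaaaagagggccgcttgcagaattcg

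Within this window Mt1 held 1 match and Mt2 held 3. Bases after the annotated start were not searched, so these are not the numbers of matches in the whole promoters. At least 3 matches were found in 1.26% of the 32851 upstream windows in RefSeq, at least 1 in 21.4%. Mt2 also held 1 match to TGACNNNGC, the core of the antioxidant response element bound by NRF2, a word present in 10.2% of all windows. The window of Mt3 held neither word. Of the 43 genes 37 matched a RefSeq window, with Hmox1, Gclc, Gsr, Gsta4, Prdx6 and Sod3 missing. Among these 37 the antioxidant word was found in 10 genes, 2 of them called higher (Gstm5 and Sesn2), 3 called lower (G6pdx, Mt2 and Txnrd1) and 5 not called (Gclm, Nfe2l2, Prdx1, Slc30a1 and Sod1). The metal word was found in 10 genes as well, 2 higher, 6 lower and 2 not called. Counted by window, the antioxidant word was in 10 of the 46 windows of the 37 genes (21.7%, against 10.2% of all windows). By the same count the metal word was in 11 of the 46 (23.9%, against 21.4%). A match is a description of these letters and not a binding site, and other words or more distant windows were not searched.

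**Figure D3:**
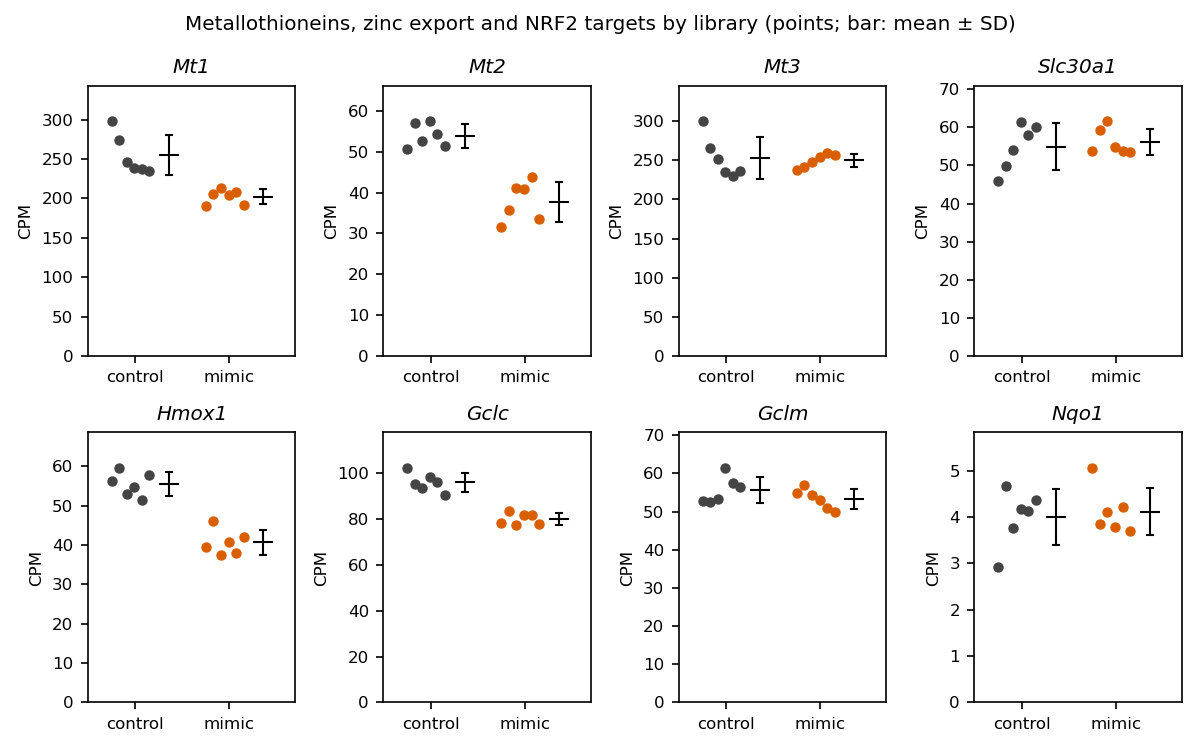
CPM of Mt1, Mt2, Mt3, Slc30a1, Hmox1, Gclc, Gclm and Nqo1 in each library (y axis, from 0, one scale per gene). Points are the 6 control (gray) and 6 mimic (orange) libraries in order of replicate number, and the bar beside them is the mean ± SD. Mt1, Mt2, Hmox1 and Gclc show no overlap between the groups, and the other 4 genes do.

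The transcripts of NRF2 and its direct regulators were not called. Nfe2l2 gave 49.7 to 67.4 CPM (median 61.6) in control and 52.1 to 65.1 CPM (median 59.3) in mimic libraries (log2 fold change −0.036, SE 0.064, adjusted p = 0.756). Keap1, whose protein is the adaptor that marks NRF2 for degradation, gave 44.1 to 51.6 CPM (median 45.0) in control and 41.2 to 45.7 CPM (median 44.0) in mimic libraries (log2 fold change −0.075, SE 0.045, adjusted p = 0.269). Sqstm1 encodes p62, an autophagy receptor that competes with NRF2 for KEAP1 and is itself an NRF2 target. It gave 365 to 469.9 CPM (median 371) in control and 354 to 367 CPM (median 359.8) in mimic libraries, and the 2 ranges overlapped by a small margin (log2 fold change −0.13, SE 0.054, adjusted p = 0.102). Control replicate 1 was the highest library, and without it the log2 fold change of Sqstm1 was −0.073. With 1 library left out, the log2 fold change ran from −0.088 to −0.043 for Keap1 and from −0.084 to −0.0020 for Nfe2l2. Transcript levels say nothing of the amount of NRF2 protein, which is set mainly by degradation.

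Of the other 2 genes in this group, 1 rose and 1 fell. Sesn2, encoding a stress-induced inhibitor of mTORC1 that helps to restore oxidized peroxiredoxins, gave 34.5 to 43.5 CPM (median 36.2) in control and 40.8 to 49.0 CPM (median 44.4) in mimic libraries. The transcript rose (log2 fold change 0.27, SE 0.059, adjusted p = 0.00275), with the highest control library above the lowest mimic library. Osgin1, an NRF2-inducible growth inhibitor, had a mean of only 56.8 counts. It gave 1.59 to 3.08 CPM (median 2.40) in control and 1.18 to 1.76 CPM (median 1.49) in mimic libraries and fell (log2 fold change −0.66, SE 0.15, adjusted p = 0.00414), although the ranges overlapped. Osgin1 alone among the 43 genes held a match to the listed control oligonucleotide's seed in its 3′ UTR, but that this oligonucleotide was given to the control cultures is an assumption.

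Among the 10 heme, quinone and glutathione genes of the NRF2 program, 4 fell, 1 rose and 5 were not called. In each of the 4 that fell, all mimic libraries were below all control libraries. Hmox1 encodes heme oxygenase 1, which breaks down heme to iron, carbon monoxide and biliverdin. It gave 51.5 to 59.6 CPM (median 55.5) in control and 37.5 to 46.1 CPM (median 40.2) in mimic libraries, and fell by 26.6% (log2 fold change −0.45, SE 0.052, adjusted p = 6.31e-06). Nqo1, the quinone reductase that is often used as a reporter of NRF2, gave 2.93 to 4.67 CPM (median 4.15) in control and 3.69 to 5.06 CPM (median 3.98) in mimic libraries and was not called (log2 fold change 0.032, SE 0.1, adjusted p = 0.874). Nqo1 was weakly expressed, with a mean of 122 counts, and without control replicate 1 its log2 fold change was −0.029.

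Glutathione is made by glutamate-cysteine ligase, and its 2 subunits differed in call. The catalytic subunit Gclc gave 90.3 to 102 CPM (median 95.7) in control and 77.5 to 83.4 CPM (median 79.8) in mimic libraries and fell by 16.6% (log2 fold change −0.26, SE 0.036, adjusted p = 4.07e-05). The modifier subunit Gclm gave 52.6 to 61.5 CPM (median 54.9) in control and 49.8 to 56.9 CPM (median 53.6) in mimic libraries (log2 fold change −0.064, SE 0.046, adjusted p = 0.373). The ratio of Gclc to Gclm within a library was 1.60 to 1.94 in control and 1.42 to 1.60 in mimic cultures, with a small overlap, and the difference between the 2 subunits was not tested. Slc7a11, the cystine importer that feeds this pathway, gave 18.7 to 29.2 CPM (median 22.4) in control and 19.6 to 26.7 CPM (median 23.9) in mimic libraries and was not called (log2 fold change 0.037, SE 0.093, adjusted p = 0.833). Gsr, which reduces oxidized glutathione, had means of 43.7 and 45.3 CPM and was not called (log2 fold change 0.053, SE 0.037, adjusted p = 0.359).

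The glutathione transferases, which couple glutathione to electrophiles, moved in both directions. Gstm1, at chr3:108012255-108017973 of GRCm38 on the minus strand, gave 193 to 204 CPM (median 201) in control and 119 to 143 CPM (median 132) in mimic libraries. It fell by 34.5% without overlap and had the smallest p of the 43 genes (log2 fold change −0.61, SE 0.043, adjusted p = 1.82e-08). Gstm5, on the same chromosome at chr3:107895821-107898686, gave 59.4 to 66.1 CPM (median 61.5) in control and 65.6 to 79.2 CPM (median 70.6) in mimic libraries. It rose (log2 fold change 0.20, SE 0.048, adjusted p = 0.0054), with a small overlap of the ranges. Within each library, Gstm1 over Gstm5 was 3.06 to 3.35 in control and 1.53 to 2.07 in mimic cultures. Gsta4, which acts on the lipid peroxidation product 4-hydroxynonenal, gave 61.0 to 72.4 CPM (median 63.4) in control and 53.9 to 60.6 CPM (median 57.7) in mimic libraries and fell (log2 fold change −0.17, SE 0.046, adjusted p = 0.00995). Gstp1 had means of 35.5 and 33.8 CPM and was not called (log2 fold change −0.064, SE 0.064, adjusted p = 0.537), and without control replicate 1 its log2 fold change was −0.0093. Reads of 50 bases limit these values, since 18.9% of the windows of Gstm1 also occur in other genes, Gstm3 and a Gstm2 pseudogene among them, and 33.7% of those of Gstp1 occur in Gstp2 or a pseudogene. Gstm5 overlaps 4933431E20Rik on the opposite strand, which had a mean of 1746 counts and a log2 fold change of 0.081 (adjusted p = 0.106).

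Thioredoxin and the peroxiredoxins, which remove peroxides through reactive cysteines, gave 2 genes that rose, 3 that fell and 4 that were not called. Txn1, encoding cytosolic thioredoxin, gave 115 to 124 CPM (median 121) in control and 134 to 156 CPM (median 140.4) in mimic libraries, with every mimic library above every control library (log2 fold change 0.23, SE 0.04, adjusted p = 0.000382). Txnrd1, its reductase and a known NRF2 target, gave 183 to 194 CPM (median 188) in control and 172 to 182 CPM (median 178) in mimic libraries. The groups did not overlap, but the transcript fell by 5.72% (log2 fold change −0.085, SE 0.03, adjusted p = 0.0488), and the call was kept in 6 of 19 alternative analyses. Of the 12 analyses that left out 1 library, the call was kept in 2, without control replicate 1 or control replicate 3, and the log2 fold change ran from −0.094 to −0.074. Srxn1 encodes sulfiredoxin, which repairs over-oxidized peroxiredoxins. It gave 73.7 to 78.9 CPM (median 74.1) in control and 63.9 to 73.6 CPM (median 66.3) in mimic libraries, and the highest mimic library was just below the lowest control library (log2 fold change −0.16, SE 0.037, adjusted p = 0.0045).

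Of the 6 peroxiredoxins, Prdx6 fell, Prdx4 rose and the other 4 were not called. Prdx6, at chr1:161240112-161251219, is the 1-cysteine form that also acts on phospholipid peroxides and is known as an astrocytic peroxiredoxin. It gave 353 to 390.4 CPM (median 381) in control and 253 to 294 CPM (median 274) in mimic libraries and fell by 27.1% (log2 fold change −0.46, SE 0.039, adjusted p = 1.84e-07). Prdx4, at chrX:155323918-155340754, resides in the endoplasmic reticulum and takes part in oxidative protein folding. It gave 16.8 to 21.3 CPM (median 19.8) in control and 26.7 to 29.2 CPM (median 28.3) in mimic libraries and rose 1.43-fold (log2 fold change 0.52, SE 0.05, adjusted p = 8.27e-07). In both genes control replicate 1 was the lowest of its group, and without it the log2 fold changes were −0.47 for Prdx6 and 0.48 for Prdx4. The cytosolic Prdx1 and Prdx2 and the mitochondrial Prdx3 and Prdx5 had log2 fold changes of −0.072, 0.00041, 0.024 and −0.10, and their adjusted p-values were 0.33, 0.998, 0.739 and 0.245 in that order. Without control replicate 1 the value for Prdx5 was −0.045. The 6 peroxiredoxins thus had changes on both sides of zero.

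**Figure D4:**
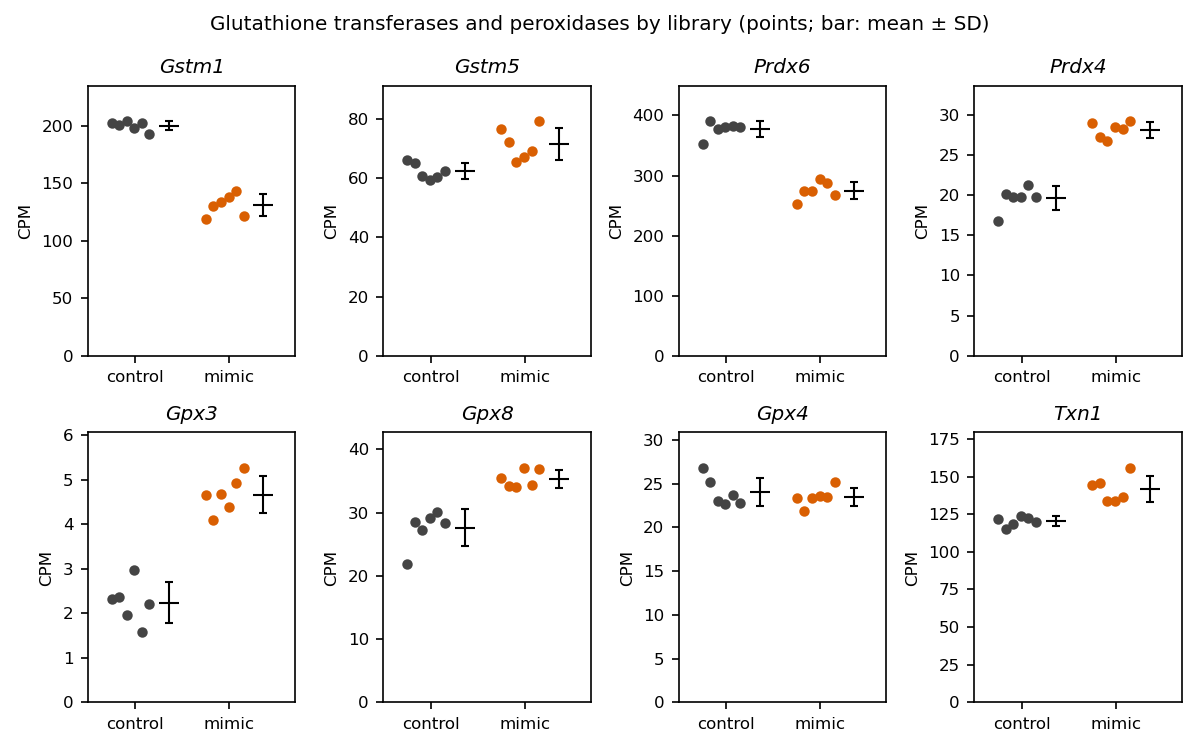
CPM of Gstm1, Gstm5, Prdx6, Prdx4, Gpx3, Gpx8, Gpx4 and Txn1 in each library (y axis, from 0, one scale per gene). Points are the 6 control (gray) and 6 mimic (orange) libraries in order of replicate number, and the bar beside them is the mean ± SD. Gstm1 and Prdx6 lie lower and Prdx4, Gpx3, Gpx8 and Txn1 higher in mimic libraries without overlap, and Gstm5 and Gpx4 overlap.

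The superoxide dismutases were not called. Sod1, the cytosolic copper and zinc enzyme, gave 91.4 to 114 CPM (median 93.7) in control and 92.4 to 101 CPM (median 96.7) in mimic libraries (log2 fold change −0.021, SE 0.051, adjusted p = 0.833), and without control replicate 1 the log2 fold change was 0.025. Sod2, the mitochondrial manganese enzyme, gave 135 to 148 CPM (median 141) in control and 137 to 151 CPM (median 143) in mimic libraries (log2 fold change 0.024, SE 0.036, adjusted p = 0.712), and 21.0% of its windows also occur in other genes. Sod3, the secreted form, was weakly expressed at 4.43 ± 0.440 CPM (SD, n = 6) in control and 3.59 ± 0.692 CPM (SD, n = 6) in mimic cultures and missed the threshold (log2 fold change −0.30, SE 0.11, adjusted p = 0.0684). Leaving out mimic replicate 5 moved Sod3 past it, with a log2 fold change of −0.39. Cat, encoding the catalase of peroxisomes, gave 107 to 121 CPM (median 118) in control and 104 to 112 CPM (median 108) in mimic libraries. It fell by 7.02% (log2 fold change −0.11, SE 0.036, adjusted p = 0.0442), the ranges overlapped, and the call was kept in 8 of 19 alternative analyses. With 1 library left out the call was kept in 3 of 12 cases, when the library set aside was replicate 1 or 2 of control or replicate 3 of mimic, and the log2 fold change ran from −0.13 to −0.093.

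Among the 4 glutathione peroxidases, 2 rose and 2 were not called. Gpx3, the secreted plasma form, at chr11:54902453-54910377, gave 1.59 to 2.97 CPM (median 2.27) in control and 4.10 to 5.27 CPM (median 4.67) in mimic libraries. The transcript rose 2.09-fold without overlap (log2 fold change 1.06, SE 0.12, adjusted p = 3.63e-06), the largest fold change of the 43 genes, from a low level with a mean of 104 counts. Gpx8, a membrane protein of the endoplasmic reticulum, gave 21.9 to 30.2 CPM (median 28.5) in control and 34.1 to 37.1 CPM (median 34.9) in mimic libraries and rose (log2 fold change 0.35, SE 0.06, adjusted p = 0.000336). Control replicate 1 was the lowest library for Gpx8, and without it the log2 fold change was 0.30. Gpx4, which reduces lipid peroxides and holds back ferroptosis, gave 22.7 to 26.8 CPM (median 23.3) in control and 21.8 to 25.1 CPM (median 23.4) in mimic libraries and was not called (log2 fold change −0.031, SE 0.049, adjusted p = 0.718). Of the windows of Gpx4, 34.7% also occur in a pseudogene or an unnamed model. Gpx1, the cytosolic form, gave 18.6 to 21.8 CPM (median 19.5) in control and 18.7 to 21.8 CPM (median 19.7) in mimic libraries and was not called (log2 fold change −0.0054, SE 0.051, adjusted p = 0.961).

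Thioredoxin reductase and glutathione reductase draw on NADPH, and of the 5 genes for its supply 3 fell, 1 rose and 1 was not called. The 3 that fell are enzymes of the pentose phosphate pathway, and none of them overlapped between the groups. G6pdx, the first and rate-limiting step, gave 38.4 to 44.7 CPM (median 39.8) in control and 32.9 to 36.0 CPM (median 34.1) in mimic libraries and fell by 15.8% (log2 fold change −0.25, SE 0.042, adjusted p = 0.000273). G6pdx overlaps Ikbkg on the opposite strand over 13.6% of its exon bases, and Ikbkg had a mean of 2083 counts and a log2 fold change of −0.047 (adjusted p = 0.493). Pgd, the second oxidative step, gave 82.3 to 86.9 CPM (median 83.2) in control and 74.9 to 80.0 CPM (median 75.8) in mimic libraries and fell by 8.89% (log2 fold change −0.13, SE 0.031, adjusted p = 0.00408). Taldo1, transaldolase, gave 85.0 to 101 CPM (median 89.4) in control and 77.6 to 82.9 CPM (median 82.1) in mimic libraries and fell by 11.2% (log2 fold change −0.17, SE 0.044, adjusted p = 0.00941). Tkt, transketolase of the same pathway, had means of 271 and 266 CPM and was not called (log2 fold change −0.024, SE 0.039, adjusted p = 0.733). Me1, cytosolic malic enzyme, gave 74.8 to 81.4 CPM (median 78.7) in control and 79.2 to 87.9 CPM (median 85.7) in mimic libraries. It rose by 8.61% with overlapping ranges (log2 fold change 0.12, SE 0.037, adjusted p = 0.0264), the call was kept in 13 of 19 alternative analyses, and 28.3% of its windows also occur in pseudogenes. The call was lost without control replicate 2, control replicate 6, mimic replicate 1 or mimic replicate 6, with log2 fold changes of 0.107, 0.106, 0.109 and 0.11.

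The ferritin subunits store iron as a mineral core and are both NRF2 targets. Fth1, the heavy chain with ferroxidase activity, gave 780.3 to 949 CPM (median 822) in control and 724 to 806 CPM (median 735) in mimic libraries. It fell by 11.6% (log2 fold change −0.18, SE 0.047, adjusted p = 0.0106), with ranges that overlapped. Ftl1, the light chain, gave 3.77 to 5.10 CPM (median 4.49) in control and 3.20 to 4.13 CPM (median 3.83) in mimic libraries and was not called (log2 fold change −0.25, SE 0.091, adjusted p = 0.0633). Without control replicate 3 Ftl1 was called lower (log2 fold change −0.30). The level of Ftl1 is uncertain, since 58.4% of its windows also occur in other models, mostly pseudogenes, and the gene had a mean of 121 counts against 23564 for Fth1.

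Sites for the mimic seed were searched in the longest 3′ UTR of each gene, as a match to bases 2 to 8 or as a match to bases 2 to 7 followed by an A. Such a site was found in 14 of the 43 genes (32.6%), and in 21.9% of the 15082 tested genes with a 3′ UTR. Of the 15 genes that fell 6 held a site, of the 7 that rose 1 held a site, and of the 21 not called 7 held a site. Over all tested genes a site was found in 33.4% of those called lower, in 18.8% of those called higher and in 20.5% of those not called. The median log2 fold change was −0.10 in the 14 genes with a site and −0.024 in the 29 without. The sites of the called genes are shown because they are where the mimic could pair directly with these transcripts. Each line gives the transcript 5′ to 3′ as DNA, with the letters that match in capitals.
Pgd, chr4:149150218-149150247, minus strand: gcagaacgatcTGCACTGAgttcactattg
Gstm1, chr3:108012585-108012613, minus strand: ccctggccttcTGCACTGtggctcctggt
Taldo1, chr7:141402812-141402840, plus strand: gaccccagaccTGCACTGcctttgagctg
Prdx6, chr1:161241300-161241328, minus strand: cattttggagaGCACTGAcatagggagaa
Srxn1, chr2:152109594-152109622, plus strand: cagctaacacaGCACTGActaacacagta
Cat, chr2:103453850-103453878, minus strand: ggcctgctggcGCACTGAgacagcagtca
Sesn2, chr4:132493486-132493514, minus strand: acaggaccgtcGCACTGActttggggtct

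Coordinates are those of GRCm38, and all of these sites lie in 3′ UTR exons. The site of Pgd joins both kinds of match in 8 bases and was the only one of its kind among the 43 genes. Gstm1 and Taldo1 carry the match to bases 2 to 8, and the other 4 carry the match to bases 2 to 7 with an A. Log2 fold changes of the 6 genes that fell ran from −0.61 for Gstm1 to −0.11 for Cat, and Sesn2 rose with a site. Mt1, Mt2, Hmox1, Gclc, Gsta4, Txnrd1, Osgin1, G6pdx and Fth1 fell without a site. Genes with a site that were not called were Gclm, Keap1, Prdx1, Prdx5, Slc7a11, Sod2 and Sod3, and Slc7a11 held 2. Whether any of these sites was bound was not measured.

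Among 130 other genes of antioxidant defence and metal handling, listed in 8 groups, 125 were tested, 25 rose and 20 fell (36.0% called, against 22.2% of all tested genes and 28.4% of the 12371 better-counted ones). Their median log2 fold change was −0.00051. The 2 genes with the largest change in each group are named when called with a mean of at least 100 counts. Of 13 partners and repressors of NRF2, 2 rose and 3 fell. The small MAF genes Mafk and Maff, whose proteins pair with NRF2, fell with log2 fold changes of −0.50 (SE 0.072, adjusted p = 5.43e-05) and −0.46 (SE 0.093, adjusted p = 0.0014), both without overlap. Of 25 tested genes for glutathione synthesis and use, 9 rose and 3 fell. Gpx7, a peroxidase of the endoplasmic reticulum, rose from 2.61 to 5.93 CPM (log2 fold change 1.19, SE 0.117, adjusted p = 9.35e-07), and Gstt1, a theta-class transferase, from 9.38 to 16.1 CPM (0.78, SE 0.058, adjusted p = 3.65e-08). Of 15 genes of the thioredoxin and methionine sulfoxide group, 3 rose and 4 fell. Selenop, the selenium transport protein, rose from 30.1 to 57.3 CPM (0.93, SE 0.076, adjusted p = 1.71e-07), and Msrb3, a methionine sulfoxide reductase, fell from 9.75 to 5.81 CPM (−0.76, SE 0.10, adjusted p = 2.64e-05).

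The other 5 groups covered quinones, NADPH, iron, zinc and copper, and oxidant sources. Of 18 genes for quinone, aldehyde and heme clearance 4 rose and 4 fell, among them Akr1b10 at 0.39 (SE 0.061, adjusted p = 0.000136) and Aox1 at −0.44 (SE 0.043, adjusted p = 1.01e-06) on the log2 fold change scale. Of 12 other genes of NADPH supply 3 rose and 1 fell, with Mthfd2, a mitochondrial folate enzyme, at 0.43 (SE 0.057, adjusted p = 2.61e-05) and the NAD kinase Nadk at 0.28 (SE 0.036, adjusted p = 2.19e-05). Of 14 tested iron genes 2 rose and 1 fell. Cp, the ferroxidase ceruloplasmin, fell from 72.4 to 44.6 CPM with overlap (−0.70, SE 0.17, adjusted p = 0.00996), and Pcbp2, an iron chaperone and RNA-binding protein, rose (0.17, SE 0.032, adjusted p = 0.000924). Of 19 zinc and copper genes 2 rose and 3 fell. Slc30a3, the zinc transporter of synaptic vesicles, rose from 4.21 to 6.74 CPM (0.70, SE 0.0999, adjusted p = 5.72e-05), and the copper pump Atp7b fell (−0.25, SE 0.068, adjusted p = 0.0119). Of 9 tested genes for sources of superoxide and peroxide none rose and 1 fell (11.1% called), and their median log2 fold change was −0.13. Mgst2, Gpx2, Hamp2 and Duox2 had too few counts to be tested, and Ero1a was not matched by symbol.

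Of the 82 marker genes tested 51.2% were called, against 22.2% of all tested genes and 28.4% of the 12371 better-counted ones. By list the share was 100% for dividing cells, 83.3% for astrocytes, 60.0% for the oligodendrocyte lineage and 50.0% for ependymal cells. It was 33.3% for neurons, 33.3% for fibroblasts, pericytes and smooth muscle, 28.6% for endothelial cells and 25.0% for microglia and macrophages. Of 12 astrocyte markers 9 rose and 1 fell, with Slc1a3, a glutamate transporter, at a log2 fold change of 0.99 and Gfap, the astrocyte filament protein, at −0.90. Of 10 markers of dividing cells all 10 rose, from a sum of 227 to 265 CPM in control to 434 to 465 CPM in mimic libraries. Of 10 markers of the oligodendrocyte lineage 5 rose and 1 fell. Their sum was 429 to 724 CPM in control and 810 to 1003 CPM in mimic libraries. Olig1 alone had means of 370 CPM in control and 720 CPM in mimic libraries. Of 12 neuron markers 1 rose and 3 fell. Of 12 microglia and macrophage markers none rose and 3 fell, with sums of 29.0 to 32.8 CPM in control and 27.5 to 46.9 CPM in mimic libraries. Endothelial markers gave 2 that fell of 7 tested (48.7 to 72.0 CPM in control, 30.2 to 53.8 CPM in mimic libraries), and ependymal markers 4 that fell of 8 (109 to 132 CPM and 82.6 to 108 CPM). Fibroblast, pericyte and smooth muscle markers gave 2 that rose and 2 that fell of 12, with sums of 215 to 281 CPM and 122 to 247 CPM. Cspg4, which rose, is counted both in this list and in that of the oligodendrocyte lineage. No marker gene was at 0 in all 12 libraries. The part of the cell composition in the changes of the 43 genes was not tested.

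Genes with uncertain counting were also set aside. Of the 43 genes 27 had under 5% of their exon bases overlapped and under 5% of their windows shared with another gene. Of these 27, 5 rose, 11 fell and 11 were not called (59.3% called, against 22.2% of all tested genes and 28.4% of the 12371 better-counted ones). The 5 that rose were Sesn2, Txn1, Prdx4, Gpx3 and Gpx8.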

How the data were processed

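RNA of 12 cultures was sequenced as 50 bp single-end reads from a poly(A)-selecting TruSeq kit. Per the labels, the authors aligned with STAR 2.5.2b to mm10 and counted per gene with featureCounts of Subread 1.5.1. The deposited files give raw counts per gene, for 48709 genes. Whether strand was used is not given in the sources used here. A second deposited table, used in 1 alternative, holds a normalized signal, the counts divided by 1 factor per library, for 18289 genes. Groups and replicate numbers came from the sample titles.

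Genes that reached 5 counts in 6 or more libraries were tested with edgeR 4.0.16 (R 4.3.3, TMM, robust glmQLFit, glmQLFTest, no covariate), and an adjusted p under 0.05 was called. The script was tested on simulated data. The SE is the size of the log2 fold change divided by the square root of F. Names, exons and 3′ UTRs were those of GENCODE M21, and upstream windows those of RefSeq. Shared windows are 50-base stretches of spliced transcripts found in another gene. Alternatives were RLE and upper-quartile scaling, DESeq2 1.42.0 (the test of the study), limma 3.58.1 on log2(signal + 1), 2 other filters, a replicate block, a minimum fold change of 1.2 and each library left out.

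The 43 genes and the lists of pathway and marker genes were chosen with earlier results of these data known, so their counts are descriptions. Full values are given for called genes with a mean of at least 100 counts and for 20 genes fixed by name, and for the 2 most changed called genes of each pathway group. Other named genes were chosen after their values were seen. For the group of oxidant sources only counts and the median are given, and its named gene is not reported here.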

Additional observations from a re-analysis of the deposited data

Results flagged for a closer look

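In 5 of 86 combinations of gene and group, 1 library lay far from the other 5 by Dixon's test, when about 4.3 would be flagged by chance at 1 in 20. Of these 5, 4 concern control replicate 1. Srxn1 had 78.9 CPM in control replicate 1, and 73.7 to 75.5 CPM in the other control libraries. In mimic replicate 6 Srxn1 had 73.6 CPM, and 63.9 to 67.3 CPM in the other mimic libraries. Prdx4 had 16.8 CPM in control replicate 1, below the 19.8 to 21.3 CPM of the other control libraries. Prdx6 had 353 CPM in control replicate 1, also below the others at 378 to 390.4 CPM. Gpx8 had 21.9 CPM in control replicate 1 against 27.3 to 30.2 CPM in the others.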

How the results depend on the processing

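Apart from the test against a minimum fold change of 1.2, 19 of the 22 calls among the 43 genes were kept in all 19 alternatives, the exceptions being Txnrd1 (kept in 6), Cat (8) and Me1 (13). Against a minimum fold change of 1.2, 1035 of all tested genes were called, and among the 43 genes 2 higher (Prdx4 and Gpx3) and 5 lower (Mt2, Osgin1, Hmox1, Gstm1 and Prdx6). This test asks for a larger change by its construction. Leaving out 1 library gave 3515 to 5154 called genes, 6 to 7 of the 43 higher and 13 to 15 lower. The replicate block gave 3659 called genes, 6 of the 43 higher and 13 lower, losing Txnrd1, Cat and Me1. The labels do not say that replicate numbers pair the cultures, the correlations of same-numbered libraries were 0.303, −0.169, 0.0504, −0.0895, −0.0913 and −0.149, and no control library correlated best with the mimic library of its own number, so the numbers were not taken as a pairing. Upper-quartile scaling added Sqstm1 (log2 fold change −0.147) and Ftl1 (−0.266) to the genes called lower.

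The sign changed in some analyses only for genes that were not called. With 1 library left out, the log2 fold change ran from −0.0441 to 0.0364 for Mt3, −0.015 to 0.0634 for Slc30a1, −0.0349 to 0.0738 for Nqo1, −0.0145 to 0.113 for Slc7a11, −0.0214 to 0.0341 for Prdx2, −0.0406 to 0.0247 for Sod1, −0.0325 to 0.0202 for Gpx1 and −0.0521 to 0.000169 for Gpx4. Prdx2 was also at −0.0179 with upper-quartile scaling and at −0.00158 with a filter of 10 counts. The cause was not tested. Counts limit the precision of Osgin1, Gpx3, Sod3, Ftl1 and Nqo1, the genes with the fewest counts.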
